A study of Danio rerio with 6 samples.

Results

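The lysosomal glycosidases, lipid hydrolases and membrane proteins were examined in bulk RNA sequencing of sorted zebrafish cells, as a list of 53 gene names matched to the symbol column of the count files. Of these, 44 names matched a row among the 36351 gene rows, and all 44 had enough reads to enter the test. The names that matched no row were gaa2, lipa, plbd1a, plbd2, npc2.1, npc2.2, scarb2b, arsb and gns, and they are not analysed here. The mutant fish were homozygous for a clcn7 mutation (clcn7-/-) and the others were their WT siblings, all at 10 weeks post fertilization. Both genotypes carried the ctsk:dsRed reporter, a red fluorescent protein placed under the promoter of the cathepsin K gene, and dsRed-positive live cells were sorted from skeletal tissue. Each of the 3 clcn7-/- and 3 WT libraries pooled 2 fish, with 5000 sorted cells from each. The labels do not describe the clcn7 allele, and they call the sorted cells osteoclasts.

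Lysosomes are acidic compartments in which hydrolases take apart glycoproteins, glycosaminoglycans, glycolipids, nucleic acids and proteins, and the membrane around them holds heavily glycosylated proteins, channels and exporters of the products. The product of clcn7 is a chloride/proton exchanger of this membrane and of the ruffled border, through which osteoclasts release acid and lysosomal enzymes onto bone. Loss of any of many of these hydrolases causes a storage disease in humans, and in mammals many of the genes carry sites for the MiT/TFE transcription factors. The roles given here for single genes are those of the mammalian proteins.

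The libraries held 22739782 to 26951306 read counts over genes. Levels are given in CPM, a gene's reads scaled to one library total with TMM factors, which compares one gene between libraries and not one gene with another, since it is not corrected for gene length. The mutated gene clcn7 had 39.1, 28 and 37.8 CPM in the clcn7-/- libraries, against 34, 30.5 and 26.1 CPM in the WT libraries and did not pass (log2 fold change 0.21 ± 0.18, edgeR adjusted p = 0.482), so its level does not check the labels, whose allele is not described. The osteoclast markers ctsk, acp5a and tnfrsf11a were detected in every library, but most keratinocyte, fibroblast and osteoblast markers were too. The exceptions were bglapl, with no reads in any library, and tcf21, with none in clcn7-/- replicate 3 and WT replicate 1. Summed per library, fibroblast markers had 28437 to 60900 CPM and keratinocyte markers 15917 to 50376 CPM. Osteoblast markers had 2729 to 6188 CPM and osteoclast markers 1402 to 3414 CPM, all without correction for gene length. Markers of blood cells differed with genotype: 13 of 14 macrophage markers and 11 of 11 neutrophil markers were higher in clcn7-/- libraries, and 9 of 10 erythroid markers were too. Of 12 osteoclast markers, 1 was higher (the proton pump gene tcirg1b) and 1 lower (nfatc1, -0.65 ± 0.17, edgeR adjusted p = 0.0415). The call of nfatc1 was lost at edgeR adjusted p of 0.126 (leaving out clcn7-/- replicate 1), 0.103 (clcn7-/- replicate 3), 0.17 (WT replicate 2) and 0.14 (WT replicate 3), with library size alone (0.0888) and with glmTreat (0.618). In the other direction, 5 of 9 keratinocyte markers and 3 of 10 osteoblast markers were lower in clcn7-/- libraries. Over all tested genes 9.91% were called higher and 4.83% lower by the same test. Beside these shares, 1 of 12 in each direction does not set the osteoclast markers apart from all genes. The summed level of the macrophage markers ranged from 1549 to 3354 CPM in clcn7-/- libraries and from 298 to 557 CPM in WT libraries, and none of the macrophage, neutrophil or osteoclast markers with a row was at 0 in any library. In bulk samples such as these, more cells of a type and more RNA per cell cannot be told apart.

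Most of the lysosomal members were higher in clcn7-/- cells. Of the 44 members, 32 rose, 1 fell and 11 did not pass in the quasi-likelihood test of edgeR, at an adjusted p under 0.05 over the 20438 genes tested. Over all tested genes 9.91% were called higher and 4.83% lower, with 2025 genes higher and 987 lower. With upper-quartile factors the split over all genes was 1787 higher and 1675 lower, and with library size alone 2626 higher and 564 lower. Without any 1 library, the 2025 genes called higher became 1157 to 1828 and the 987 called lower became 199 to 737. In the same fits the members called higher numbered 25 to 31. Among the members, 72.7% were called higher, and their median log2 fold change (clcn7-/- over WT) was 1.21, beside -0.05 over all tested genes. The risers spanned fold changes of 1.39 to 8.74, with 27 of 32 at 2-fold or more and 8 of 32 at 4-fold or more. For all 32, every clcn7-/- library lay above every WT library, and for 13 of them the lowest clcn7-/- library was at least 2 times the highest WT library. That separation, clcn7-/- above WT in every library, was found in 19.4% of all tested genes. The 32 were called on these same libraries, so their separation largely restates the calls. Its share among the 2025 genes called higher was not computed. The authors' deposited table, made with DESeq2, has 32 of the 44 members higher and 2 lower at its adjusted p under 0.05, and these 34 comprise the 33 called here and idua.

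**Figure D1:**
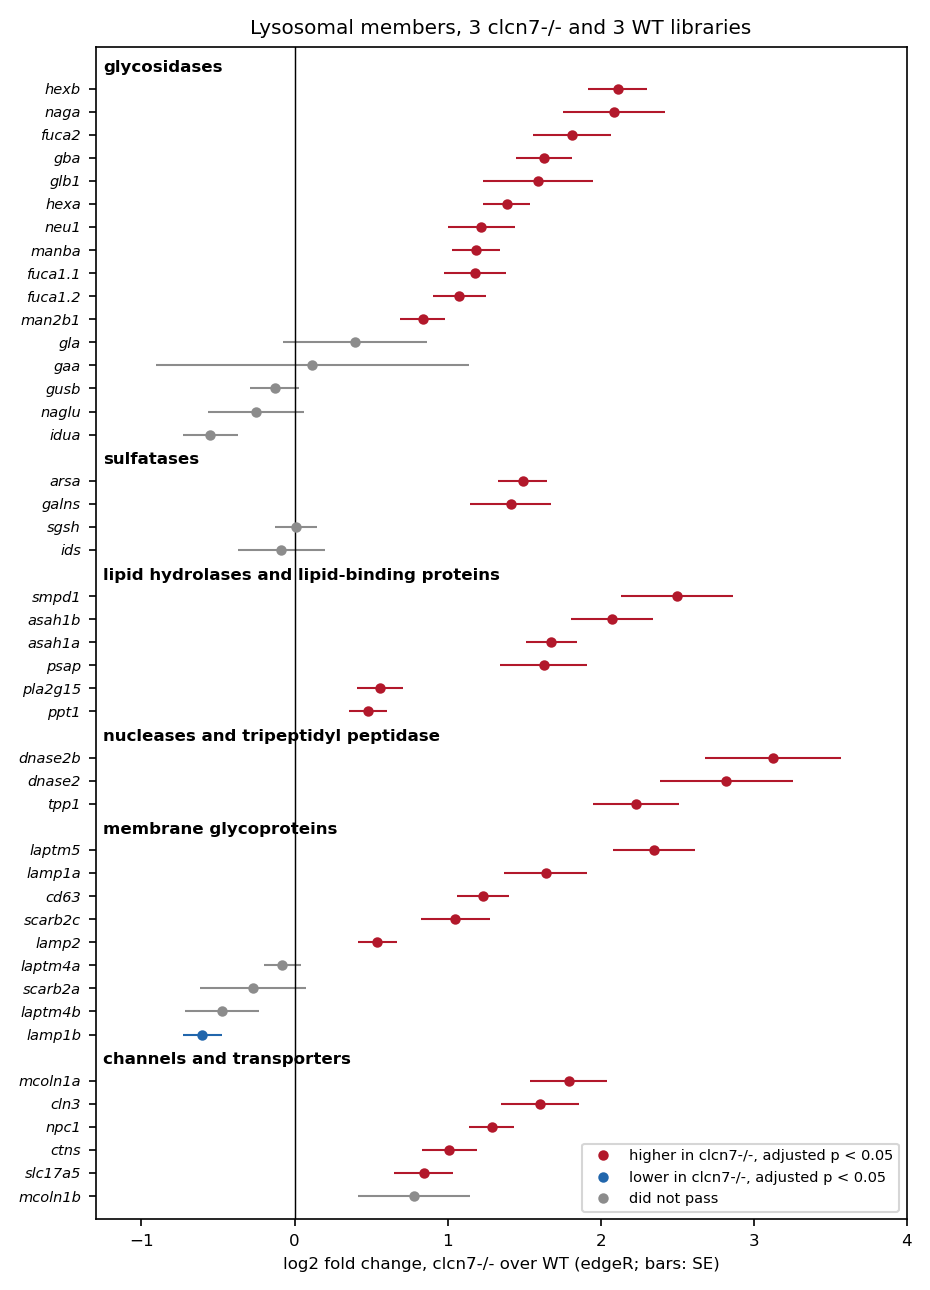
Log2 fold change of each of the 44 members (clcn7-/- over WT, n = 3 libraries each; bars are SE), grouped by class and ordered by size. Red points passed the test as higher and the blue point as lower in clcn7-/-; the 2 nuclease genes and smpd1 lie farthest to the right, and lamp1b is the only point called lower.

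Glycosidases remove sugars one at a time from the ends of glycan chains. Of the 16 measured, 11 rose and none fell, and the median log2 fold change was 1.18. Over all tested genes 9.91% were called higher and 4.83% lower, so the lack of a faller does not set the class apart. hexb, which encodes the beta subunit of beta-hexosaminidase, had 227, 242 and 254 CPM in the clcn7-/- libraries, against 65, 61.2 and 41.2 CPM in the WT libraries. Its log2 fold change was 2.11 ± 0.20 (SE; edgeR adjusted p = 0.00114), and the 3 clcn7-/- libraries lay close together, all far above the WT range. hexa, for the alpha subunit, had 42.2, 39.2 and 44.5 CPM in the clcn7-/- libraries, against 17.6, 16.9 and 13.7 CPM in the WT libraries (1.39 ± 0.15, edgeR adjusted p = 0.00195). The glucocerebrosidase gene gba had 70.7, 53.9 and 78.8 CPM in the clcn7-/- libraries, against 24.6, 21.7 and 19.4 CPM in the WT libraries (1.63 ± 0.18, edgeR adjusted p = 0.00206). For both genes the lowest clcn7-/- library was more than 2 times the highest WT library. fuca2, one of the alpha-fucosidase genes, had 364, 253 and 453 CPM in the clcn7-/- libraries, against 127, 89.6 and 87.8 CPM in the WT libraries (1.81 ± 0.25, edgeR adjusted p = 0.0042), with clcn7-/- replicate 2 the lowest of its group.

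naga, which encodes alpha-N-acetylgalactosaminidase, had 249, 148 and 322 CPM in the clcn7-/- libraries, against 78.1, 42.6 and 48.6 CPM in the WT libraries. It rose (2.09 ± 0.34, edgeR adjusted p = 0.00712). Its close relative gla, which encodes alpha-galactosidase A, was scarce and did not pass, with 3.03, 4.28 and 2.18 CPM in the clcn7-/- libraries, against 3.78, 1.42 and 2 CPM in the WT libraries (log2 fold change 0.40 ± 0.47, edgeR adjusted p = 0.621), and its groups overlapped. The other risers were the beta-galactosidase gene glb1 (1.59 ± 0.36), the sialidase gene neu1 (1.22 ± 0.22), the beta-mannosidase gene manba (1.19 ± 0.16), the alpha-fucosidase genes fuca1.1 (1.18 ± 0.20) and fuca1.2 (1.08 ± 0.17), and the alpha-mannosidase gene man2b1 (0.84 ± 0.15). gaa, the acid alpha-glucosidase gene, was near the detection limit, with 30, 77 and 1 reads in the clcn7-/- libraries and 22, 35 and 34 reads in the WT libraries. It did not pass (edgeR adjusted p = 0.956). The call of glb1 was lost in edgeR at adjusted p of 0.0715 (leaving out clcn7-/- replicate 1), 0.0667 (clcn7-/- replicate 3), 0.0888 (WT replicate 2) and 0.0691 (WT replicate 3), and that of neu1 at an edgeR adjusted p of 0.0515 (leaving out WT replicate 3). Tested against a fold of 1.5 with glmTreat, the calls of glb1, neu1, man2b1, fuca1.1 and fuca1.2 were also lost, at adjusted p of 0.0807, 0.0537, 0.179, 0.05005 and 0.0517.

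Sulfatases take sulfate groups off glycolipids and glycosaminoglycans. Of the 4 measured, 2 rose, beside 9.91% called higher over all tested genes. arsa, which encodes the sulfatase of the myelin lipid sulfatide, had 37.6, 34.7 and 39.8 CPM in the clcn7-/- libraries, against 13.7, 11.2 and 14.9 CPM in the WT libraries (1.49 ± 0.16, edgeR adjusted p = 0.00189). galns, whose product acts on keratan and chondroitin sulfate, had 52.3, 38.8 and 53.3 CPM in the clcn7-/- libraries, against 23.3, 19.2 and 11.7 CPM in the WT libraries (1.41 ± 0.26, edgeR adjusted p = 0.0126). Its call was lost with glmTreat (adjusted p = 0.0517). sgsh and ids did not pass.

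Grouped by substrate rather than by enzyme class, the members fell into sets with different counts. This grouping was chosen after the values were seen and carries no test. Of 11 members that degrade glycosphingolipids or sphingomyelin (gba, gla, glb1, hexa, hexb, neu1, arsa, asah1a, asah1b, smpd1 and psap), 10 rose, with a median log2 fold change of 1.63. All 6 that trim other glycoprotein sugars (man2b1, manba, naga, fuca1.1, fuca1.2 and fuca2) rose, with a median of 1.18. Of the 5 exoenzymes of heparan sulfate (ids, idua, sgsh, naglu and gusb), none passed, and their median was -0.13. Over all tested genes 9.91% were called higher and 4.83% lower, so none of 5 does not set these genes apart from all genes.

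The sulfamidase gene sgsh had 23.6, 23.5 and 26.4 CPM in the clcn7-/- libraries, against 23.3, 24.1 and 25.6 CPM in the WT libraries (0.01 ± 0.14, edgeR adjusted p = 0.972), and its 6 libraries lay within a narrow range. gusb, for beta-glucuronidase, had 59, 83.9 and 63.5 CPM in the clcn7-/- libraries, against 75.4, 75.5 and 74.9 CPM in the WT libraries (-0.13 ± 0.16, edgeR adjusted p = 0.638), so the WT libraries were nearly equal and the clcn7-/- libraries lay on both sides of them. The iduronate sulfatase gene ids had 9.31, 10.4 and 7.83 CPM in the clcn7-/- libraries, against 13.8, 7.42 and 7.99 CPM in the WT libraries (-0.09 ± 0.28, edgeR adjusted p = 0.878). naglu, for alpha-N-acetylglucosaminidase, had 4.98, 5.3 and 6.26 CPM in the clcn7-/- libraries, against 4.88, 5.41 and 9.43 CPM in the WT libraries (-0.25 ± 0.31, edgeR adjusted p = 0.637). The iduronidase gene idua had 13.8, 11.2 and 10.5 CPM in the clcn7-/- libraries, against 16.1, 18.9 and 16.9 CPM in the WT libraries, with every clcn7-/- library below every WT library. It did not pass in edgeR (-0.55 ± 0.18, adjusted p = 0.078), but passed as lower in DESeq2 (log2 fold change -0.54, adjusted p = 0.0396) and with upper-quartile factors (-0.66, edgeR adjusted p = 0.0367).

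Further heparan sulfate genes, outside the 44 members, differed in their calls. They were also named after their values were seen. The heparanase gene hpse, whose product cuts inside the chain, had 20.7, 15 and 32.8 CPM in the clcn7-/- libraries, against 9.44, 4.1 and 5.52 CPM in the WT libraries (1.84 ± 0.39, edgeR adjusted p = 0.0193). Its call was lost at edgeR adjusted p of 0.0513 (leaving out clcn7-/- replicate 3), 0.0609 (WT replicate 2) and 0.0801 (WT replicate 3) and with glmTreat (0.0538). The acetyltransferase gene hgsnat did not pass (0.59 ± 0.22, edgeR adjusted p = 0.108). The symbol gns matched no row, but the files hold gnsa and gnsb, named as duplicates of the glucosamine sulfatase gene. gnsb had 213, 112 and 274 CPM in the clcn7-/- libraries, against 26, 20.4 and 19.5 CPM in the WT libraries (3.18 ± 0.33, edgeR adjusted p = 0.00173), whereas gnsa had 74.1, 93.2 and 77.5 CPM in the clcn7-/- libraries, against 83, 90.0 and 97.7 CPM in the WT libraries and did not pass (-0.15 ± 0.15, edgeR adjusted p = 0.555).

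**Figure D2:**
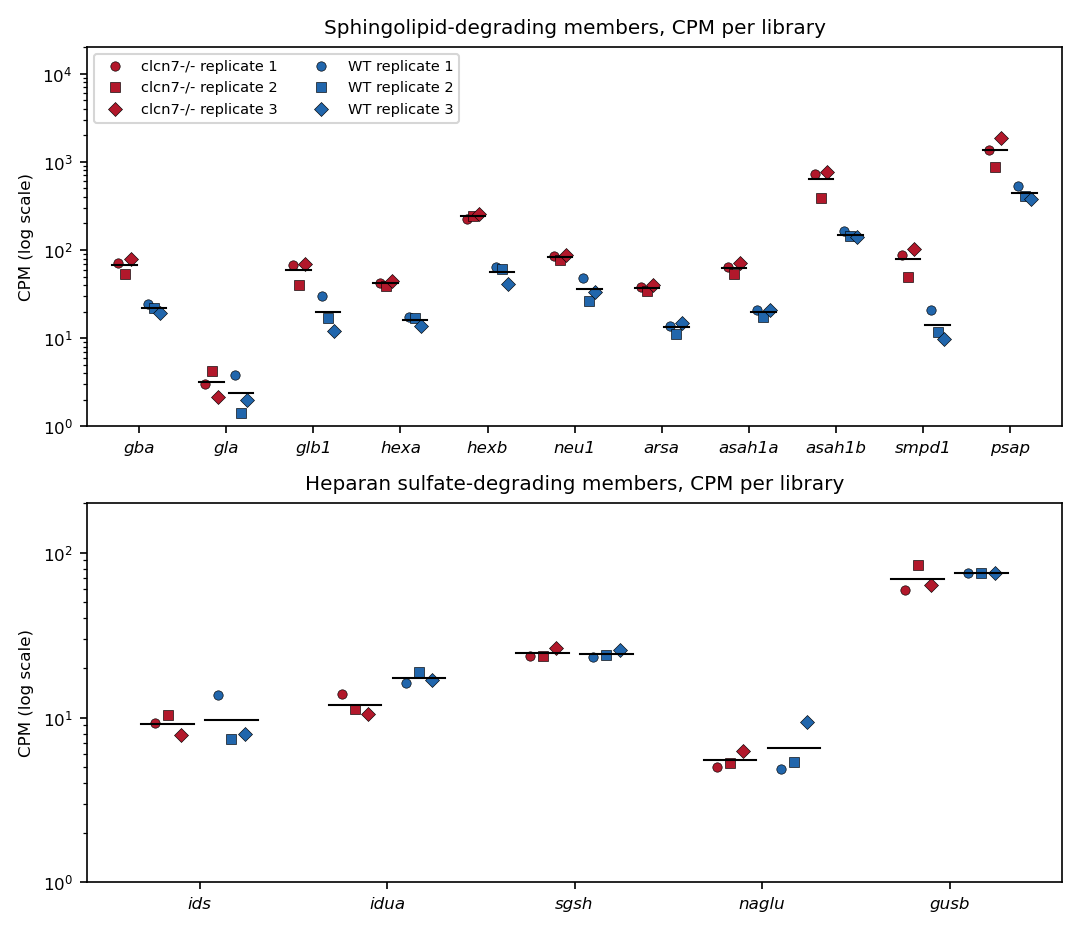
CPM (log axis) of the sphingolipid-degrading members (upper panel) and the heparan sulfate-degrading members (lower panel), 1 symbol per library, with the clcn7-/- libraries in red left of the WT libraries in blue and black bars for the mean of 3. In the upper panel the groups are apart for every gene but gla. In the lower panel only idua has groups that do not overlap. Over all tested genes, every clcn7-/- library lay above every WT library in 19.4% and below in 17.6%.

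All 6 measured lipid hydrolases and lipid-binding proteins rose, with a median log2 fold change of 1.65, beside 9.91% called higher over all tested genes. Of the 11 names listed for this class, lipa, plbd1a, plbd2, npc2.1 and npc2.2 matched no row. smpd1, which encodes acid sphingomyelinase, had 87.8, 49.8 and 102 CPM in the clcn7-/- libraries, against 20.9, 11.8 and 9.73 CPM in the WT libraries. Its log2 fold change was 2.50 ± 0.37 (edgeR adjusted p = 0.00509), and clcn7-/- replicate 2 was the lowest of the mutant libraries while WT replicate 1 was the highest of the WT libraries. The acid ceramidase genes asah1a and asah1b both rose. asah1b had 731, 384 and 774 CPM in the clcn7-/- libraries, against 165, 143 and 140.4 CPM in the WT libraries (2.07 ± 0.27, edgeR adjusted p = 0.0032), and asah1a had 64.4, 53 and 71.9 CPM in the clcn7-/- libraries, against 20.9, 17.4 and 20.9 CPM in the WT libraries (1.68 ± 0.17, edgeR adjusted p = 0.00147). psap, the precursor of the saposins that lift lipids for the hydrolases, had 1374, 868 and 1867 CPM in the clcn7-/- libraries, against 538, 410.0 and 382 CPM in the WT libraries (1.63 ± 0.29, edgeR adjusted p = 0.00991). Its clcn7-/- libraries spread widely, and all were above WT.

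The smallest rises of the class were those of the phospholipase gene pla2g15 (0.56 ± 0.15, edgeR adjusted p = 0.0441) and the thioesterase gene ppt1 (0.48 ± 0.12, edgeR adjusted p = 0.0399). pla2g15 lost its edgeR call without any 1 of the 6 libraries, at adjusted p of 0.116 (leaving out clcn7-/- replicate 1), 0.0656 (clcn7-/- replicate 2), 0.0934 (clcn7-/- replicate 3), 0.0587 (WT replicate 1), 0.117 (WT replicate 2) and 0.0779 (WT replicate 3). ppt1 kept its call without WT replicate 1 and lost it otherwise, at edgeR adjusted p of 0.0934 (leaving out clcn7-/- replicate 1), 0.0703 (clcn7-/- replicate 2), 0.0848 (clcn7-/- replicate 3), 0.106 (WT replicate 2) and 0.122 (WT replicate 3). Both calls were also lost with upper-quartile factors (edgeR adjusted p of 0.0769 and 0.0795), with no low-count filter (0.0556 and 0.0625) and with glmTreat (0.868 and 1).

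All 3 nuclease and peptidase genes rose, with a median log2 fold change of 2.82, beside 9.91% called higher over all tested genes. dnase2b, which encodes an acid endonuclease, had 25.3, 14.2 and 31.1 CPM in the clcn7-/- libraries, against 4.13, 1.42 and 2.52 CPM in the WT libraries (3.13 ± 0.44, edgeR adjusted p = 0.00455). dnase2, the lysosomal nuclease that digests DNA of engulfed cells, had 94.7, 47.5 and 110.2 CPM in the clcn7-/- libraries, against 18.9, 7.85 and 8.86 CPM in the WT libraries (2.82 ± 0.43, edgeR adjusted p = 0.00596). tpp1, for tripeptidyl peptidase, had 282, 169 and 305 CPM in the clcn7-/- libraries, against 70.1, 48.1 and 42.6 CPM in the WT libraries (2.23 ± 0.28, edgeR adjusted p = 0.00293). In all 3 genes clcn7-/- replicate 2 was the lowest mutant library and WT replicate 1 the highest WT library, and the groups did not overlap.

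Of the 9 membrane glycoproteins measured, 5 rose, 1 fell and 3 did not pass. Over all tested genes 9.91% were called higher and 4.83% lower, so 1 faller of 9 does not set the class apart. laptm5, a lysosomal membrane protein of blood cells, had 279, 180.0 and 295 CPM in the clcn7-/- libraries, against 65.9, 39.7 and 42.3 CPM in the WT libraries (2.35 ± 0.27, edgeR adjusted p = 0.00211). The tetraspanin gene cd63 had 1558, 1216 and 1733 CPM in the clcn7-/- libraries, against 596, 652 and 670.1 CPM in the WT libraries (1.23 ± 0.17, edgeR adjusted p = 0.00405), with tight WT values. lamp1a and lamp1b, duplicates of the gene for a main lysosomal membrane glycoprotein, changed in opposite directions. lamp1a had 89.5, 68.9 and 137 CPM in the clcn7-/- libraries, against 36.4, 25.3 and 32.9 CPM in the WT libraries (1.64 ± 0.27, edgeR adjusted p = 0.0078). lamp1b fell to 44.3, 45.9 and 50.7 CPM in the clcn7-/- libraries, against 66.6, 73.7 and 73.5 CPM in the WT libraries (-0.60 ± 0.13, edgeR adjusted p = 0.0205), and the groups did not overlap. The edgeR call of lamp1b was lost at adjusted p of 0.0749 (leaving out clcn7-/- replicate 1), 0.0523 (clcn7-/- replicate 2), 0.0905 (WT replicate 2) and 0.0958 (WT replicate 3). It was also lost with library size alone (edgeR adjusted p = 0.059) and with glmTreat (0.733), and was kept with DESeq2 and limma-voom.

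scarb2c and scarb2a are both named as copies of the gene for the membrane receptor that carries glucocerebrosidase to lysosomes. scarb2c had 155, 99.4 and 169 CPM in the clcn7-/- libraries, against 78.5, 68.9 and 56.8 CPM in the WT libraries (1.05 ± 0.23, edgeR adjusted p = 0.0211). scarb2a had 204, 165 and 90.8 CPM in the clcn7-/- libraries, against 266, 154 and 136 CPM in the WT libraries and did not pass (-0.27 ± 0.35, edgeR adjusted p = 0.647). WT replicate 1 was the highest of all libraries for scarb2a and clcn7-/- replicate 3 the lowest. lamp2, for the other main glycoprotein of the membrane, also rose (0.54 ± 0.13, edgeR adjusted p = 0.0288). laptm4a had 455, 423 and 442 CPM in the clcn7-/- libraries, against 451, 477 and 467 CPM in the WT libraries (-0.08 ± 0.12, edgeR adjusted p = 0.711), and laptm4b did not pass either (-0.47 ± 0.24, edgeR adjusted p = 0.23). Without 1 library the call of scarb2c was lost at edgeR adjusted p of 0.0664 (leaving out clcn7-/- replicate 1), 0.0561 (clcn7-/- replicate 3), 0.0667 (WT replicate 2) and 0.0728 (WT replicate 3), and that of lamp2 at 0.0658 (leaving out clcn7-/- replicate 1), 0.0642 (clcn7-/- replicate 2), 0.0614 (clcn7-/- replicate 3), 0.102 (WT replicate 2) and 0.102 (WT replicate 3). glmTreat ended both calls (adjusted p of 0.125 and 0.927), and upper-quartile factors that of lamp2 (edgeR adjusted p = 0.0548).

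Of the 6 channels and transporters, 5 rose and none fell, beside 9.91% called higher and 4.83% lower over all tested genes. npc1, which exports cholesterol from the lysosome, had 163, 149.7 and 164 CPM in the clcn7-/- libraries, against 74.2, 64.6 and 56.1 CPM in the WT libraries (1.29 ± 0.15, edgeR adjusted p = 0.00211). mcoln1a, for the lysosomal calcium channel mucolipin, had 44.1, 34.4 and 46.7 CPM in the clcn7-/- libraries, against 16.4, 11 and 8.73 CPM in the WT libraries (1.79 ± 0.25, edgeR adjusted p = 0.0045). Its duplicate mcoln1b was scarce, with 4.37, 3.3 and 2.47 CPM in the clcn7-/- libraries, against 1.69, 1.85 and 2.35 CPM in the WT libraries, and did not pass (0.78 ± 0.37, edgeR adjusted p = 0.2), although its groups did not overlap. cln3, the gene of juvenile neuronal ceroid lipofuscinosis, had 37.9, 26.3 and 47.9 CPM in the clcn7-/- libraries, against 9.72, 13.7 and 13.5 CPM in the WT libraries (1.60 ± 0.25, edgeR adjusted p = 0.00654). WT replicate 1 was its lowest library. The cystine exporter gene ctns (1.01 ± 0.18, edgeR adjusted p = 0.0102) and the sialic acid exporter gene slc17a5 (0.84 ± 0.19, edgeR adjusted p = 0.0264) also rose. The call of slc17a5 was lost at edgeR adjusted p of 0.0877 (leaving out WT replicate 2) and 0.09 (WT replicate 3), and glmTreat ended those of slc17a5 (adjusted p = 0.26) and ctns (0.0833). In a RefSeq table of the GRCz12tu assembly, cln3, gaa and mcoln1b lie on chromosome 3 with clcn7, with 294, 210 and 517 protein-coding genes between each and clcn7.

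Summed over a class, each of the 6 classes was higher in every clcn7-/- library than in any WT library. The glycosidases summed to 1438, 1198 and 1696 CPM in clcn7-/- libraries, against 639.8, 503 and 472 CPM in WT libraries. The lipid class summed to 2537, 1629.6 and 3109 CPM in clcn7-/- libraries, against 955, 777 and 748 CPM in WT libraries, and psap made up between 51% and 60.0% of it. The ratio of genotype means was largest for the nuclease and peptidase class, at 5.27, then 2.93 for the lipid class, 2.68 for glycosidases, 2.41 for channels and transporters, 1.82 for sulfatases and 1.68 for membrane glycoproteins. These sums weigh abundant members most, so the order is a description of these libraries and the differences between classes were not tested. Beside them the marker sums had ratios of 6.46 for macrophages, 5.06 for neutrophils, 4.2 for erythroid cells and 1.49 for osteoclasts, the last with overlapping groups. In the neutrophil sum, nccrp1, with a fold of only 1.60, made up between 11.4% and 50.8%. The median log2 fold change of single markers was 2.98 for neutrophils and 2.84 for macrophages. The ratios were 0.455 for keratinocytes, 0.533 for osteoblasts and 0.694 for fibroblasts, and in these 3 lists every clcn7-/- library lay below every WT library. For fibroblasts the gap was small, with 43077 CPM in the highest clcn7-/- library against 43478 CPM in the lowest WT library. None of the 8 fibroblast markers tested was called. The part of these shifts in the class sums was not tested.

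**Figure D3:**
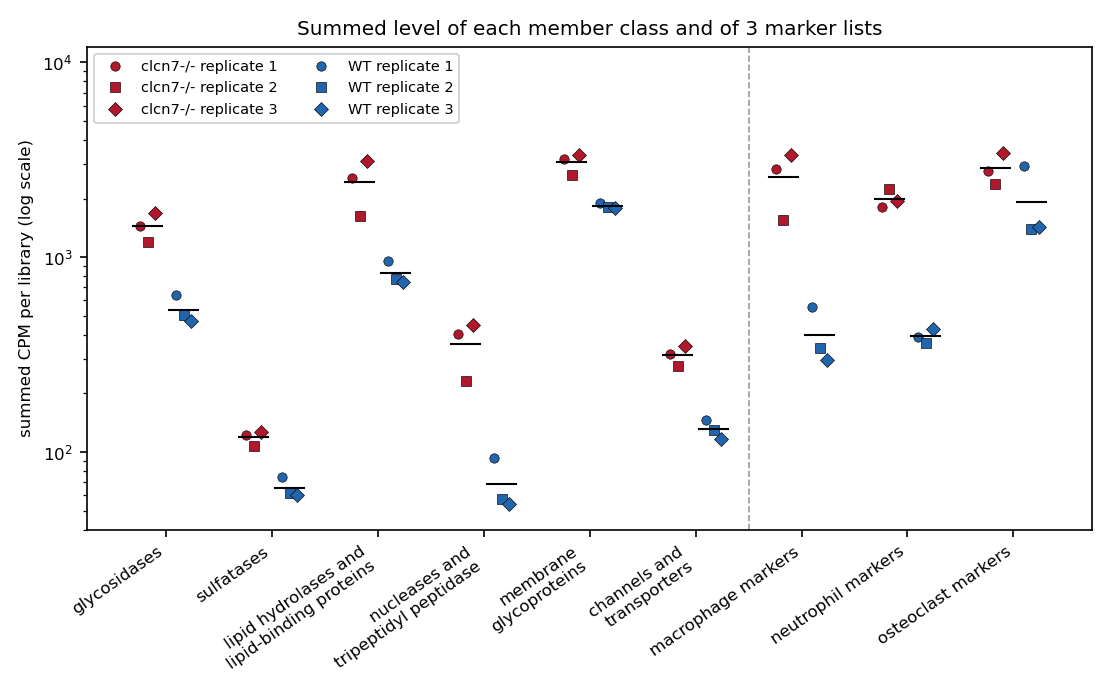
Summed CPM per library (log axis) of the 6 member classes and, right of the dashed line, of the macrophage, neutrophil and osteoclast marker lists, with clcn7-/- libraries in red left of WT libraries in blue and black bars for the mean of 3. The groups are apart in every column but the osteoclast markers, where WT replicate 1 (2930.0 CPM) lies among the clcn7-/- libraries.

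Related members were compared within a library by the log2 ratio of their CPM, which does not depend on the scaling apart from the 0.5 CPM added to each level. Of 12 pairs, 7 had ratios that did not overlap between genotypes (two-sided exact permutation test, p = 0.1, the smallest that 3 against 3 libraries can give, and 0.171 after Benjamini-Hochberg adjustment over the 12 pairs). No pair could therefore pass a threshold of 0.05. How often such ratios separate for unrelated genes was not computed, so the 7 of 12 has no reference. For levels of single genes, every clcn7-/- library lay above every WT library in 19.4% of tested genes and below in 17.6%. The pairs of lamp1a, scarb2a, mcoln1a, gla and laptm5 join members with different calls, so their separate ratios partly restate those calls. The log2 ratio of lamp1a to lamp1b was 1.01, 0.58 and 1.42 in clcn7-/- libraries, against -0.86, -1.52 and -1.15 in WT libraries, so more reads fell on lamp1a in every mutant library and more on lamp1b in every WT library. For laptm4a to laptm5 it was 0.71, 1.23 and 0.59 in clcn7-/- libraries, against 2.77, 3.57 and 3.45 in WT libraries. For hexa to hexb it was -2.41, -2.61 and -2.50 in clcn7-/- libraries, against -1.86, -1.83 and -1.56 in WT libraries, a difference of -0.76, although both subunit genes rose. The other pairs with separate ratios were scarb2a and scarb2c (difference -1.31), mcoln1a and mcoln1b (1.15), gla and naga (-1.68), and fuca1.1 and fuca2 (-0.61). fuca1.1 and fuca1.2, which lie side by side on chromosome 19 in the GRCz12tu table, had overlapping ratios that differed by 0.14 between genotypes. Reads that match both copies of such a pair may not be assigned to either, so levels of close duplicates are uncertain to that extent.

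**Figure D4:**
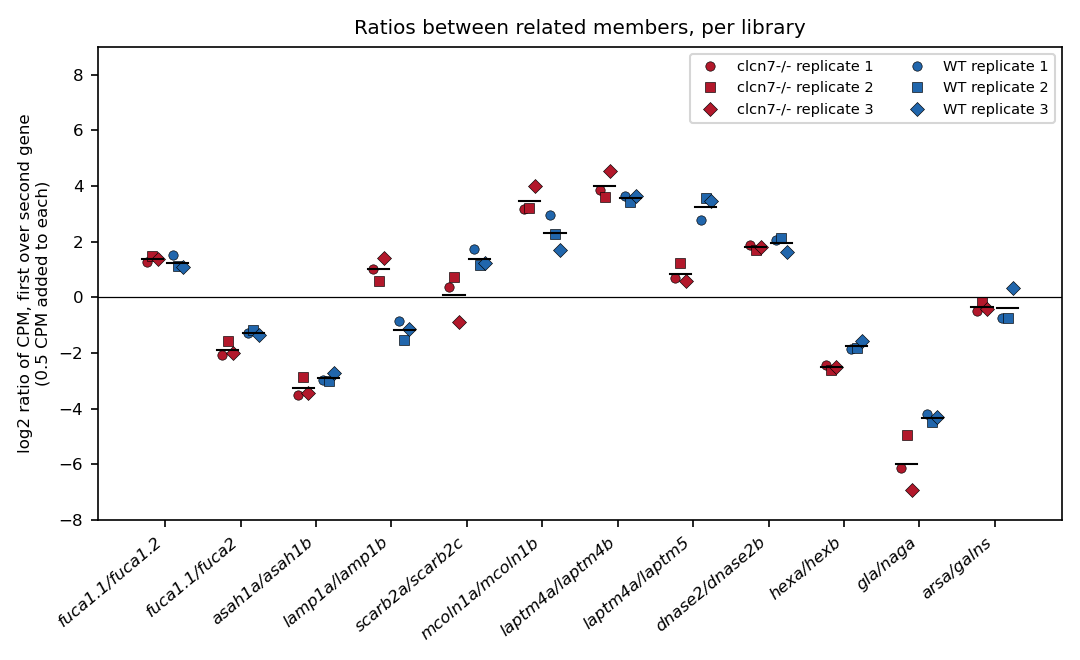
Log2 ratio of CPM between related members in each library (0.5 CPM added to each level), with clcn7-/- libraries in red left of WT libraries in blue and black bars for the mean of 3. The ratio of lamp1a to lamp1b lies above 0 in the clcn7-/- libraries and below 0 in the WT libraries, and that of fuca1.1 to fuca1.2 overlaps.

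The members also varied together among libraries of 1 genotype. In 29 of the 32 risers, the clcn7-/- libraries ranked replicate 3 highest, replicate 1 next and replicate 2 lowest, an order found in 1 of the 11 members that did not pass. The same order was found in 20.3% of all tested genes and in 50.9% of the 2025 genes called higher. Among marker lists it was found in 12 of 14 macrophage markers, 2 of 11 neutrophil markers, 0 of 10 erythroid markers and 3 of 12 osteoclast markers. Among WT libraries, replicate 1 was the highest for 28 of the 32 risers, beside 59.9% of the 2025 genes called higher and 36.9% of all tested genes. It was also the highest for 12 of 14 macrophage, 8 of 12 osteoclast, 8 of 10 erythroid, 6 of 11 neutrophil, 6 of 10 osteoblast, 6 of 9 keratinocyte and 2 of 8 fibroblast markers. The summed macrophage markers were 2824, 1549 and 3354 CPM in clcn7-/- libraries, against 557, 341 and 298 CPM in WT libraries. The summed osteoclast markers ranked in the same order, with 2783, 2384 and 3414 CPM in clcn7-/- libraries. Their WT libraries had 2930, 1402 and 1426 CPM, so replicate 1 was again the highest. In the neutrophil and erythroid sums, clcn7-/- replicate 2 was the highest of its group. What part the share of macrophage or osteoclast RNA has in the rises of the lysosomal members was not tested. Without WT replicate 1, which stood apart for the osteoclast markers, 31 of the 32 risers were still called higher and the median log2 fold change of the members was 1.37.

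**Figure D5:**
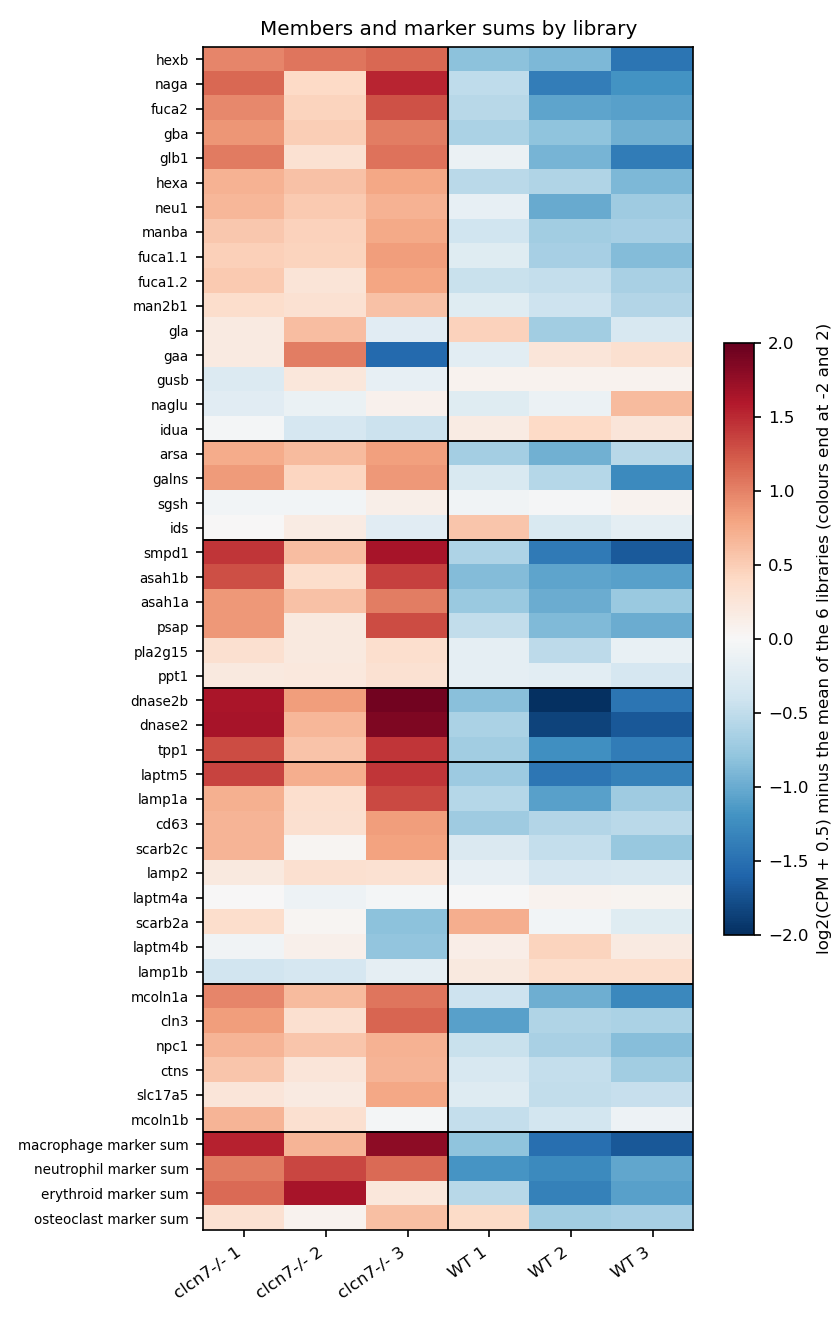
Log2(CPM + 0.5) of each member, and of 4 summed marker lists, minus its mean over the 6 libraries, with clcn7-/- libraries on the left and WT libraries on the right and black lines between classes. Most member rows are red in the clcn7-/- columns, palest in replicate 2 as in the macrophage and osteoclast rows. The sgsh and laptm4a rows are nearly even across the 6 columns.

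A list of further lysosomal and related genes was counted in the same way. The list is broad, with entries such as engase, manea and cd81a, and where each product lies in the cell was not checked. Of 79 tested, 38 rose (48.1%), 3 fell (3.8%) and 38 did not pass, with a median log2 fold change of 0.76. Over all tested genes 9.91% were called higher and 4.83% lower, so the share that fell was near that of all genes. Without WT replicate 3, 22 rose and none fell; 0 fell without WT replicate 2, and 1 fell without clcn7-/- replicate 1 or 3. For genes of enzyme targeting and activation, 8 of 19 rose and 1 fell. gnptab, which makes the mannose phosphate tag that routes hydrolases to lysosomes, had 43.7, 36.1 and 47.4 CPM in the clcn7-/- libraries, against 17, 15.3 and 19.9 CPM in the WT libraries (1.28 ± 0.17, edgeR adjusted p = 0.00351). The sortilin gene sort1b had 86.9, 60.7 and 107 CPM in the clcn7-/- libraries, against 23.5, 18.6 and 19.5 CPM in the WT libraries (2.04 ± 0.23, edgeR adjusted p = 0.00195), while its duplicate sort1a fell, with 95.7, 114 and 82.9 CPM in the clcn7-/- libraries, against 138, 171 and 162 CPM in the WT libraries (-0.69 ± 0.16, edgeR adjusted p = 0.0305). The call of sort1a was lost at edgeR adjusted p of 0.0924 (leaving out clcn7-/- replicate 1), 0.0757 (clcn7-/- replicate 3), 0.131 (WT replicate 2) and 0.127 (WT replicate 3), with library size alone (0.0578) and with glmTreat (0.513).

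Of 24 other hydrolases and cofactors, 14 rose and 1 fell, beside 9.91% higher and 4.83% lower over all tested genes. glb1l, a relative of the beta-galactosidase gene, had 187, 103 and 144 CPM in the clcn7-/- libraries, against 23.1, 25.2 and 21.5 CPM in the WT libraries (2.64 ± 0.23, edgeR adjusted p = 0.000909). The chitobiase gene ctbs had 28.6, 19 and 35.8 CPM in the clcn7-/- libraries, against 3.46, 4.77 and 1.26 CPM in the WT libraries (3.13 ± 0.47, edgeR adjusted p = 0.00541). The sulfatase gene arsg had no reads in the clcn7-/- libraries, against 14, 13 and 10 reads in WT replicates 1, 2 and 3 (edgeR adjusted p = 0.0176). At such counts its call was lost in edgeR without any 1 WT library, at adjusted p of 0.0615 (leaving out WT replicate 1), 0.0779 (WT replicate 2) and 0.0763 (WT replicate 3). Of 36 other membrane proteins, 16 rose and 1 fell. The peptide transporter gene abcb9 had 29.2, 42.8 and 26.2 CPM in the clcn7-/- libraries, against 6.45, 4.26 and 6.21 CPM in the WT libraries (2.54 ± 0.26, edgeR adjusted p = 0.00166), and the tetraspanin gene tspan36 had 652, 415 and 687 CPM in the clcn7-/- libraries, against 146, 117 and 100.5 CPM in the WT libraries (2.27 ± 0.24, edgeR adjusted p = 0.00183). The faller was tmem106ba, with 73.2, 78.3 and 70.7 CPM in the clcn7-/- libraries, against 108, 111 and 134 CPM in the WT libraries (-0.67 ± 0.14, edgeR adjusted p = 0.0188), whose call was lost at adjusted p of 0.0658 (leaving out clcn7-/- replicate 1), 0.0527 (clcn7-/- replicate 3), 0.0625 (WT replicate 2) and 0.0924 (WT replicate 3) and with glmTreat (0.523).

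Of 6 genes of the MiT/TFE factors, which activate lysosomal genes and were named here after their values were seen, 4 rose. Over all tested genes 9.91% were called higher. tfeb had 37, 24.2 and 58.9 CPM in the clcn7-/- libraries, against 7.12, 3.75 and 4.87 CPM in the WT libraries (2.93 ± 0.38, edgeR adjusted p = 0.00322). tfec had 52, 38.7 and 62.1 CPM in the clcn7-/- libraries, against 3.94, 3.71 and 3.04 CPM in the WT libraries (3.83 ± 0.23, edgeR adjusted p = 0.000448), and mitfb had 15.8, 11.4 and 26 CPM in the clcn7-/- libraries, against 2.4, 1.7 and 1.52 CPM in the WT libraries (3.24 ± 0.37, edgeR adjusted p = 0.00208). In these 3 genes every clcn7-/- library was more than 3 times the highest WT library. Their clcn7-/- libraries ranked replicate 3 highest, replicate 1 next and replicate 2 lowest, as in 12 of 14 macrophage markers. The summed osteoclast markers had this order too. The same order was found in 50.9% of the 2025 genes called higher and in 20.3% of all tested genes. What part these factors, or the share of macrophage or osteoclast RNA, have in the rises was not tested. tfe3b also rose (0.84 ± 0.19, edgeR adjusted p = 0.0245), and its call was lost at adjusted p of 0.0764 (leaving out clcn7-/- replicate 1), 0.0665 (clcn7-/- replicate 3), 0.0608 (WT replicate 1) and 0.0752 (WT replicate 2) and with glmTreat (0.257). mitfa did not pass (0.98 ± 0.39, edgeR adjusted p = 0.14). tfe3a had 91.2, 86 and 107 CPM in the clcn7-/- libraries, against 78.7, 57.6 and 68.6 CPM in the WT libraries and did not pass (0.47 ± 0.16, edgeR adjusted p = 0.0948), except with library size alone (edgeR adjusted p = 0.0465).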

How the data were processed

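RNA was sequenced from 6 libraries of sorted dsRed-positive cells, 3 clcn7-/- and 3 WT. The labels call them biological replicates. The deposited files hold whole-number read counts per gene, 1 file per library. The authors used STAR 2.7.0a, HTSeq 0.9.1, Trim Galore and DESeq2 with the GRCz11 genome, per the submitters' processing notes. No annotation or strand setting is given in the sources used here. Lines for unassigned reads, 20.1% to 23.0% of each file's total, were left out. A deposited table of the authors, with p-values and log2 changes per gene, is used only where named.

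Counts were scaled by TMM, filtered with filterByExpr (minimum count 10, minimum total 15) and tested with edgeR 4.0.16 (glmQLFit, glmQLFTest; genotype as the only term) in R 4.3.3, with Benjamini-Hochberg adjustment and a threshold of 0.05. SE values were computed as the absolute log2 fold change over the square root of F. The total counts give a common biological coefficient of variation of 35.3%. Alternatives were RLE and upper-quartile factors, library size alone, no filter, a stricter one (at least 1 CPM in 3 libraries, mean count at least 10), limma-voom 3.58.1 with quality weights, DESeq2 1.42.0, glmTreat against a fold of 1.5, the replicate number as a block, and leaving out each library. Related genes were compared by an exact permutation test of log2 ratios. The code was tested on simulated data. Promoter motifs were not analysed here.

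The members and gene lists were chosen with earlier results of these data known. In each class, values of every library are given for up to 3 genes called higher and 3 called lower with the smallest p, the most abundant member, and pairs of related genes that differ in their call. The substrate groups, hgsnat, hpse, gnsa, gnsb, the MiT/TFE genes and the genes given beyond that rule were chosen after their values were seen. Near-identical copies share reads, so their counts are uncertain.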

Additional observations from a re-analysis of the deposited data

How the results depend on the processing

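Of the 33 members called, 20 kept their call in all 15 alternatives to the fit, and 25 of the 32 risers kept it in every fit without 1 library; the members that lost a call are given with their values in the report. Members called higher numbered 32 with TMM, 20 with glmTreat, 29 with upper-quartile factors, 30 with no filter and 25 to 31 without 1 library. Members called lower numbered 1 with TMM, 2 with upper-quartile factors, 2 with DESeq2, 0 with library size alone, 0 with glmTreat and 0 to 1 without 1 library. Calls over all genes numbered 3012, against 4665 with DESeq2, 1191 with glmTreat and 1356 to 2527 without 1 library. Of the further lysosomal and related genes, glmTreat called 20 higher and 1 lower, and fits without 1 library called 22 to 39 higher and 0 to 3 lower. Library size alone put the median log2 fold change of all genes at 0.10 and upper-quartile factors at -0.16, beside -0.05 with TMM. With 2 CPM added in place of 0.5, the genotype difference of dnase2 to dnase2b turned to 0.21; that of arsa to galns ranged from -0.15 to 0.40 without 1 library. The causes of these changes were not tested.

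Deviations of same-numbered libraries from their group means correlated at 0.26, 0.0622 and 0.156, and those of different numbers at -0.216 to 0.0269, so each library correlated best with its own number. Deviations from a mean of 3 libraries constrain each other, and what unpaired libraries would give was not computed. These values therefore do not decide whether the libraries are paired. The labels give the numbers no shared source, so the numbers were not treated as pairs in the main fit. With the replicate number as a block, 30 members were called higher (ppt1 and lamp2 were lost in edgeR, at adjusted p of 0.0772 and 0.0608) and 3007 genes over all. arsg was also lost under the block (edgeR adjusted p = 0.0623). The motif-length alternative for promoters was not run. gaa had 1 to 77 reads per library at similar totals, a wide spread between libraries of 1 genotype.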
